A study of Homo sapiens with 6 samples.

Results

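The clustered protocadherin genes form 3 neighbouring clusters on the long arm of chromosome 5, and their chromatin accessibility was measured here in human melanoma cells with and without added HMGB2. The members were the 53 protein-coding genes of GENCODE release 44 whose symbols begin with PCDHA, PCDHB, PCDHGA, PCDHGB or PCDHGC, which are 15 alpha, 16 beta and 22 gamma genes. Of the 152800 accessible regions (peaks) in the deposited table, 69 lay between 1 kb before the first and 1 kb after the last of these genes, an interval of 728.8 kb on hg38, and each was assigned to the gene whose start was nearest. A further peak crossed the end of the interval and was not counted. Of the 69 peaks, 20 were nearest to an alpha gene, 31 to a beta gene and 18 to a gamma gene.

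Clustered protocadherins are cell-surface adhesion proteins that bind identical copies of themselves on neighbouring cells, and neurons choose different combinations of them as an identity label that lets their own branches recognise and avoid each other. In the alpha and gamma clusters each gene is a large first exon with its own promoter, which is spliced to constant exons shared by the whole cluster, whereas the beta genes are single exons with no shared part. The C-type genes (PCDHAC1, PCDHAC2, PCDHGC3, PCDHGC4 and PCDHGC5) stand last in the alpha and gamma clusters and are regulated apart from the others in neurons. The remaining promoters are silenced by DNA methylation until one is chosen through CTCF, cohesin looping and distant enhancers. An enhancer of the alpha cluster lies between the alpha and beta clusters.

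ATAC-seq, in which the Tn5 transposase cuts and tags open DNA, was performed on A375 cells, an established human melanoma line. The 3 empty vector libraries were compared with 3 HMGB2OE libraries, from a stable line overexpressing HMGB2, an architectural protein that binds and bends DNA. Both are derivatives of A375, labelled as the genotypes empty vector and HMGB2OE, and according to the study's methods the overexpression line was made by lentiviral transduction and drug selection, with no treatment recorded for either group. The methods call the libraries technical replicates of an experiment that was not repeated, so each p-value measures the spread between these libraries only, and a difference between the lines that arose for another reason cannot be told apart from one caused by HMGB2. Because the cells were measured in bulk, fewer cells with an open site and less opening per cell cannot be told apart either.

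The libraries held from 26910189 to 45645294 counts in peaks. Of the 3 tested peaks inside HMGB2 on chromosome 4, the one from 173332680 to 173333181 had 32.0 ± 15.7 normalized counts (SD, n = 3) in empty vector and 98.4 ± 5.31 in HMGB2OE. The peak from 173331939 to 173332440 had 28.7 ± 6.28 and 63.0 ± 10.6. The most open of the 3, from 173334285 to 173334786, had 1986 ± 223 and 1973 ± 59.0, with a log2 fold change of −0.01 (edgeR quasi-likelihood, adjusted p = 0.959). Whether reads from the introduced copy were counted in these peaks was not tested. For marker genes, only peaks within 1 kb of the GENCODE gene start were searched, so starts elsewhere in the gene were not examined. Starts of other genes under the same peak were not looked for. Of 8 melanocytic marker genes, MITF, PMEL, S100B and SOX10 had such a peak, with means from 96.9 (SOX10) to 3768 (PMEL) normalized counts. None was found at MLANA, TYR, DCT or TYRP1. Of 7 markers of epithelial, immune and endothelial cells, KRT5 and EPCAM had one, at 63.9 and 217.

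The promoters of these genes are built to a common plan within each cluster, and 47 of the 53 genes had a promoter in the RefSeq table used (GRCh38.p14, from 250 bases before to 50 bases after the start). PCDHA3, PCDHA13, PCDHB6, PCDHB11, PCDHGA12 and PCDHGC5 had no entry. A short conserved element with the core CGCT is known upstream of most of these starts. The letters CGCT, on either strand, stood in 46 of the 47 promoters and in 70.0% of all 35116 promoters, so the core alone separates little. Words of 10 letters were picked as the most shared among these promoters, so their high share here follows from the choice. All promoters include those of the members. The word of 10 letters held by most promoters, searched on both strands, was GGTGGCGCTG, which occurred in 12 of 14 beta promoters, in no alpha or gamma promoter and in 0.276% of all promoters. The most shared word of the alpha promoters was ATGATGTCGC, in 8 of 13 (0.0313% of all), and that of the gamma promoters was GCGCCGCTGT, in 9 of 20 (0.131% of all). These per-cluster words were looked for after the peak values were known.

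The following stretches show the alpha and gamma words in capitals in their setting upstream of the start, on the plus strand from 5′ to 3′, for 2 alpha and 4 gamma genes. PCDHGA1 and PCDHGA7 had a peak at the start, and PCDHGA9 and PCDHGB4 had none.
PCDHA1, chr5:140786081-140786118: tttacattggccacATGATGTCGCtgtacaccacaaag
PCDHA7, chr5:140834167-140834204: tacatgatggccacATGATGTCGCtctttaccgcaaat
PCDHGA1, chr5:141330401-141330438: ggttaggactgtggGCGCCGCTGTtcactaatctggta
PCDHGA7, chr5:141382647-141382684: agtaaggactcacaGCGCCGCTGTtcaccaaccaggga
PCDHGA9, chr5:141402712-141402749: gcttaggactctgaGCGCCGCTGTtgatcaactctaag
PCDHGB4, chr5:141387615-141387652: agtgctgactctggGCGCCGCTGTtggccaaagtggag

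The next pair shows the 150 bases before the starts of the neighbouring genes PCDHB2 and PCDHB3, whose start-site peaks differed between the lines in opposite directions. The shared beta word is in capitals and was present in both.
PCDHB2, chr5:141094456-141094605: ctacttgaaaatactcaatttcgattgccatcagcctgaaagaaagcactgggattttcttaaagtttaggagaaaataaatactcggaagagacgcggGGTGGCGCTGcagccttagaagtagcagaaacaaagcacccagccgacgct
PCDHB3, chr5:141100323-141100472: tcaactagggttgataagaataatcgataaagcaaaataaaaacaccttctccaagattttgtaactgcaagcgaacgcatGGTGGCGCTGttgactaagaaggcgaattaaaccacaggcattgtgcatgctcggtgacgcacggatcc

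CTCF binds many of these promoters and, in the alpha cluster, also a site within the first exon. A strict core word of the CTCF motif, with the letters CCA, AG and GGC fixed and the pairs of bases between them free, was searched on both strands. It was present in 7 of the 69 peaks (10.1%) and in 7.44% of all 150117 tested peaks. Among promoters it was found at PCDHB9 alone of the 47, against 2.41% of all promoters. Such a word misses many real sites, and its absence says only that these letters are not in the window. The stretches below are written in the direction of the word, which is in capitals. The sites at PCDHA4 and PCDHA9 lay on the strand of the genes, as did those at PCDHB9 and after PCDHB15 and the one in the second PCDHA7 peak, whose stretch is the same as that at PCDHA9. The one before PCDHB1 lay on the opposite strand, as did the one at the end of the gamma cluster, which is named by its nearest start, PCDHGC5.
PCDHA4, chr5:140807635-140807664: tctcggtttCCACTAGAGGGCgcctcggat
PCDHA9, chr5:140848943-140848972: tctcggtttCCACTAGAGGGCgcgtccgat
PCDHB9, chr5:141187070-141187099: tgttggaagCCACAAGGTGGCgctgcagac
After PCDHB15, chr5:141273087-141273116: cagctcctgCCACAAGGTGGCagtccagtt
Before PCDHB1, chr5:141040354-141040383: gatctttaaCCAGCAGAGGGCgagtcgact
Last exon part of PCDHGC5, chr5:141512494-141512523: aggctatggCCACTAGGGGGCgcactgggg

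The 3 clusters differed in how many of their genes carried a peak at the start. A peak centred within 1 kb of the start (a start-site peak) was present at 14 of 15 alpha genes, at 15 of 16 beta genes and at 9 of 22 gamma genes. The total of 38 of 53 genes compares with 68.6% of the 19970 protein-coding genes in GENCODE. The alpha exception was PCDHA9, whose peak was centred 1234 bp after the GENCODE start in the coding exon, and 624 bp after the RefSeq start. The beta exception was PCDHB4, whose nearest peak lay 5760 bp after its start.

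Among the gamma genes, start-site peaks were present at PCDHGA1, PCDHGA2, PCDHGA7, PCDHGA10, PCDHGA12, PCDHGB1, PCDHGB2, PCDHGB3 and PCDHGC3. None was present at the starts of PCDHGA3, PCDHGA4, PCDHGA5, PCDHGA6, PCDHGA8, PCDHGA9, PCDHGA11, PCDHGB4, PCDHGB5, PCDHGB6, PCDHGB7, PCDHGC4 or PCDHGC5. The table lists only regions that passed the authors' peak calling, so a start without a peak is one that was not called and not one shown to be closed. The gamma word shown above was present in 4 of 8 promoters with a peak and in 5 of 12 without one. In the 250 bases on each side of the start, the median GC content was 44.9% for the 9 gamma genes with a peak and 47.1% for the 13 without. The ratio of observed to chance-level CpG had medians of 0.484 and 0.663 in the same order.

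Members of these clusters resemble each other, which matters for reads that can align to several genes. Of the 31-base words in the start windows of PCDHGB4, PCDHGB5, PCDHGB6 and PCDHGB7, 28.7% to 33.1% occurred elsewhere in hg38, and none of the 9 gamma windows with a peak exceeded 0.425%. In the beta cluster, PCDHB8 and PCDHB13 had 38.6% and 43.5% of such words in their start windows and did have start-site peaks. How reads with several alignments were treated is not given in the sources used here, and its part in the missing gamma peaks was not tested. The other 9 gamma starts without a peak held at most 15.5% of such words, and 8 of them held none. Over the 69 peaks, 15 shared more than 20% of their words with another place, among them the second PCDHA7 peak (100%) and the PCDHA9 peak (89.2%).

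**Figure D1:**
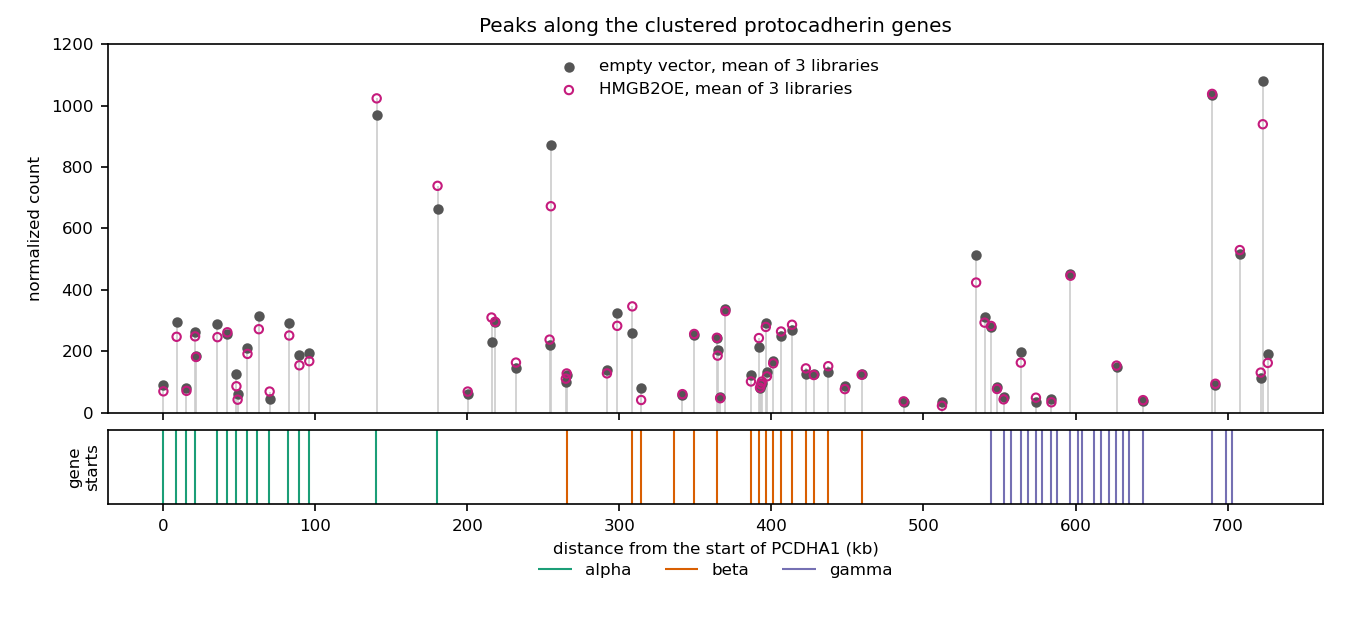
Mean normalized counts (vertical axis) of the 69 peaks against distance from the start of PCDHA1 in kb, with filled grey points for the 3 empty vector libraries and open magenta points for the 3 HMGB2OE libraries, and with the 53 gene starts below, coloured by cluster. The highest peaks are those at PCDHAC1, PCDHAC2 and PCDHGC3, one between the alpha and beta clusters and one at the end of the gamma cluster, and most of the gamma starts have no peak above them.

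The C-type promoters were the most open of all the starts. All peaks were 502 bp wide, and normalized counts, which are counts scaled to a common library size, are set side by side below. Among the strongest start-site peaks, more than 20% of the 31-base words occurred elsewhere at PCDHA3, PCDHA6, PCDHA8, PCDHA10, PCDHA12, PCDHB8, PCDHB9 and PCDHB13. The same held for the second peaks of PCDHA4 and PCDHA7. How reads with several alignments affect the levels of these peaks was not tested. The PCDHGC3 start-site peak (chr5:141475694-141476195) had 976, 1095 and 1031 normalized counts in empty vector and 1052, 1004 and 1057 in HMGB2OE. The PCDHAC1 peak (chr5:140926270-140926771) had 956, 997 and 954 in empty vector and 1012, 1052 and 1006 in HMGB2OE. The PCDHAC2 peak (chr5:140966292-140966793) had 664, 692 and 633 in empty vector and 731, 687 and 797 in HMGB2OE. The library ranges of PCDHGC3 and PCDHAC1 overlapped, and both lay above all 6 values of PCDHAC2. PCDHGC4 and PCDHGC5, the other 2 C-type genes, had no start-site peak.

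After the C-type genes came PCDHGA7, with 452 ± 52.9 normalized counts in empty vector and 446 ± 35.8 in HMGB2OE (SD, n = 3 each), below every library value of PCDHAC2. From PCDHB2 at 303 (mean of 6 libraries) down to PCDHGA12 at 38.6, the remaining 34 genes formed a continuous range in which neighbouring genes overlapped. The lowest were PCDHGA2, PCDHGB2, PCDHGB3 and PCDHGA12, all gamma genes, with means from 38.6 to 47.4.

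Within the alpha cluster, the start-site peaks of PCDHA2, PCDHA4, PCDHA5, PCDHA6 and PCDHA11 had means from 254.8 to 271 normalized counts over the 6 libraries. PCDHA8, PCDHA12 and PCDHA13 followed with 171 to 201. PCDHA1, PCDHA3, PCDHA7 and PCDHA10 were the least open, from 56.4 to 105. Less open starts stood among the open ones along the cluster. PCDHA4 and PCDHA7 each had a second peak inside 1 kb of the start, at 183 and 52.2.

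In the beta cluster, the means of PCDHB2, PCDHB5, PCDHB6, PCDHB8, PCDHB10, PCDHB11 and PCDHB16 lay between 229 and 303 normalized counts. PCDHB1, PCDHB7, PCDHB9, PCDHB12, PCDHB13, PCDHB14 and PCDHB15 lay between 111 and 165, and PCDHB3 stood alone at 60.6. PCDHB8 had a row of 4 peaks over its start and coding exon, at 229, 81.0, 90.7 and 99.4, and between 47.5% and 72.0% of the words of each occurred elsewhere in hg38. The gene order on the chromosome did not follow the order of the levels in either cluster.

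Set against the 13718 tested promoter peaks of coding genes, whose median was 566 normalized counts, PCDHGC3, PCDHAC1 and PCDHAC2 stood at the 75.5th, 74.0th and 58.6th percentiles. PCDHGA7 stood at the 42.6th and all other members at or below the 32.7th. The 41 start-site peaks that did not belong to C-type genes had a median of 165 normalized counts. Base composition differed along with level. The C-type peaks had a GC content of 59.4% to 70.1%, the others a median of 48.0%, and coding promoters in general a median of 65.5%.

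**Figure D2:**
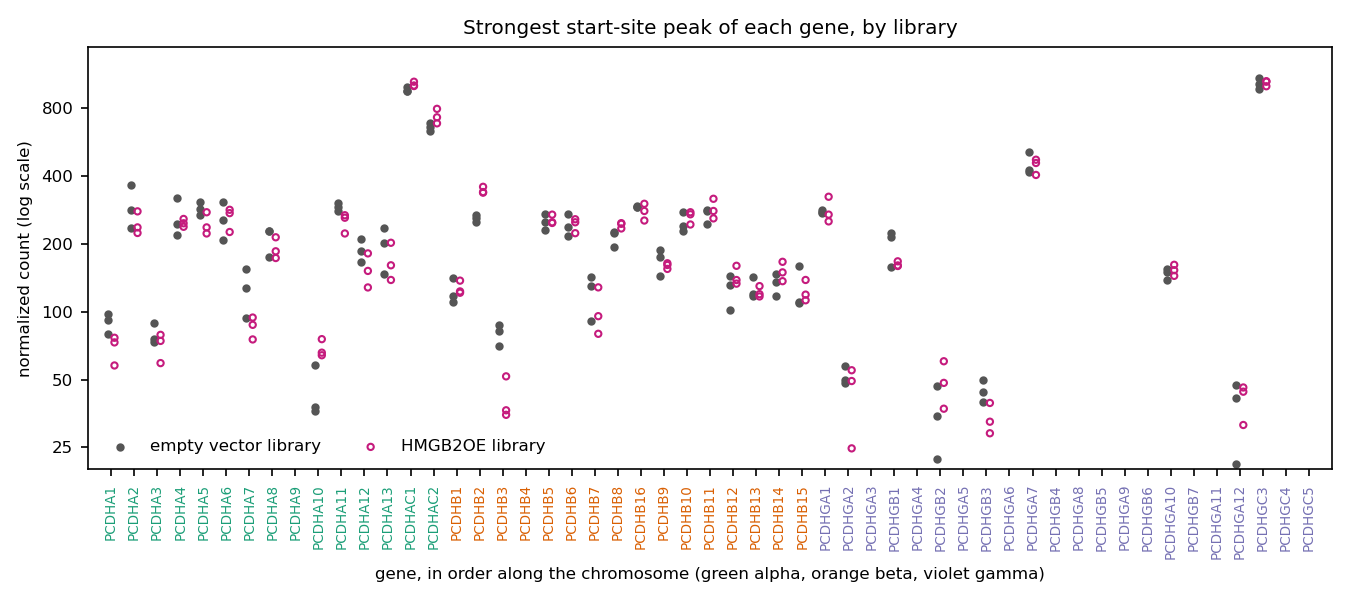
Normalized counts (log scale) of the strongest start-site peak of each of the 53 genes in chromosomal order, with 1 point per library, filled grey for empty vector and open magenta for HMGB2OE. Genes without points have no start-site peak, and PCDHGC3, PCDHAC1 and PCDHAC2 lie above all others in every library.

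**Figure D3:**
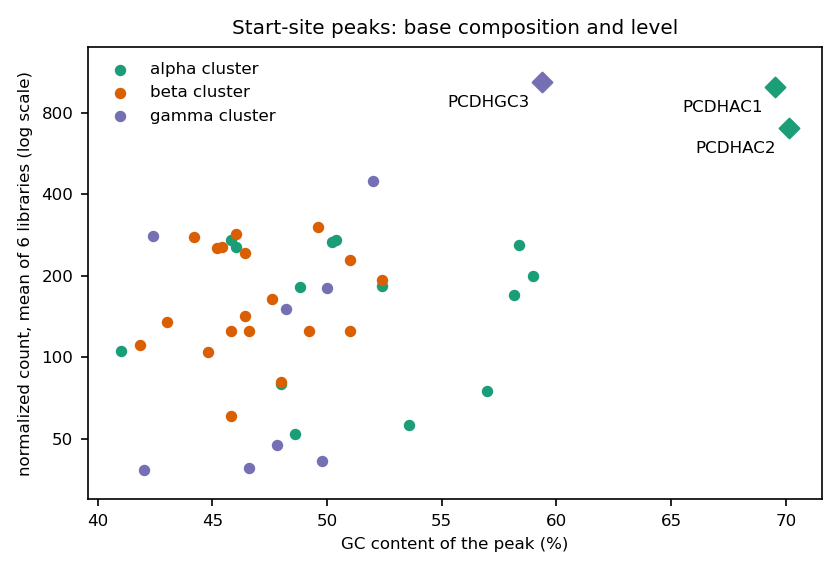
GC content in percent (horizontal axis) against the mean normalized count of 6 libraries (log scale) for the 44 start-site peaks, coloured by cluster, with C-type genes as diamonds. The 3 C-type peaks combine the highest levels with a GC content of 59.4% or more, and the others have levels from 38.6 to 449 at a GC content below that.

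Overexpression of HMGB2 was compared with empty vector to ask whether accessibility of these adhesion genes differed between the lines. Few of the clustered protocadherin peaks differed. With edgeR's quasi-likelihood test, a Benjamini–Hochberg adjusted p below 0.05 and a change of at least 1.5-fold, 0 of the 69 peaks were higher in HMGB2OE and 1 was lower. Of the 150117 peaks tested in the genome, 1.87% passed this rule with a higher and 1.44% with a lower value in HMGB2OE, and among coding promoters 0.678% were called in either direction. Without the fold limit, 2 clustered protocadherin peaks were higher and 2 lower, against 3.44% and 3.03% of all tested peaks (6.47% in either direction). For coding promoters these shares were 0.889% and 1.75%, and the like set here is the 44 start-site peaks. Of these 44, 0 were called higher and 1 lower, and without the fold limit 1 was higher and 1 lower. Such counts are too small to rank against the promoter shares. At an unadjusted p below 0.05 there were 10 of 69, or 14.5%, against a background of 20.9%, and DESeq2 likewise called 0 higher and 1 lower. The peaks that differed are described in turn.

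The called peak was at the start of PCDHB3 (chr5:141100198-141100699), a beta protocadherin. It had 87.6, 82.6 and 70.2 normalized counts in empty vector and 36.6, 51.7 and 34.9 in HMGB2OE. Every HMGB2OE library lay below every empty vector library, and the groups did not overlap. Mean accessibility fell from 80.1 ± 8.93 to 41.1 ± 9.27 (SD, n = 3 each), a log2 fold change of −0.95 with a standard error of 0.23 (edgeR quasi-likelihood, adjusted p = 0.0101). It was the least open of the beta starts with a peak, with 31 to 96 reads per library, and none of its 31-base words occurred elsewhere in hg38. Without HMGB2OE replicate 1 the adjusted p was 0.0603 and the peak was no longer called.

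PCDHB2, the next gene upstream, differed in the opposite direction. Its start-site peak (chr5:141094374-141094875) had 270, 260 and 250 normalized counts in empty vector and 338, 340 and 359 in HMGB2OE. The groups did not overlap, and the libraries within each group were close together. The log2 fold change was 0.41 with a standard error of 0.11 (edgeR quasi-likelihood, adjusted p = 0.0202), which is below the 1.5-fold limit. Leaving out single libraries moved the adjusted p between 0.0275 and 0.0647, and it stayed below 0.05 only without empty vector replicate 1. Of these adjacent beta promoters with the same 10-letter word, PCDHB3 fell and PCDHB2 rose under the threshold without a fold limit.

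Away from the starts, a pair of peaks passed the same threshold, one in an intron at the end of the alpha cluster and one between the alpha and beta clusters. The peak 10318 bp before PCDHB1 (chr5:141040806-141041307) lay between genes and was counted with the beta cluster only by its nearest member start. ENSG00000288892, a gene that is not among the members, starts within 1 kb of it. Among the peaks nearest to a beta gene it was the most open. It had 939, 866 and 810 normalized counts in empty vector and 706, 694 and 616 in HMGB2OE. All HMGB2OE values lay below all empty vector values. The log2 fold change was −0.37 with a standard error of 0.09 (edgeR quasi-likelihood, adjusted p = 0.00997), and the adjusted p was 0.0588 without HMGB2OE replicate 3. The neighbouring peak, 11150 bp before PCDHB1, holds the CTCF word printed above. Its log2 fold change was 0.13 with a standard error of 0.12 (adjusted p = 0.595), and its groups overlapped.

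The other was an intronic peak 35559 bp after the start of PCDHAC2 (chr5:141001779-141002280). It had 228, 216 and 246 normalized counts in empty vector and 331, 320 and 278 in HMGB2OE. No HMGB2OE library fell within the empty vector range. It rose by a log2 fold change of 0.44 with a standard error of 0.12 (edgeR quasi-likelihood, adjusted p = 0.0215). Without empty vector replicate 2, HMGB2OE replicate 1 or HMGB2OE replicate 2 the adjusted p exceeded 0.05, reaching 0.123.

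**Figure D4:**
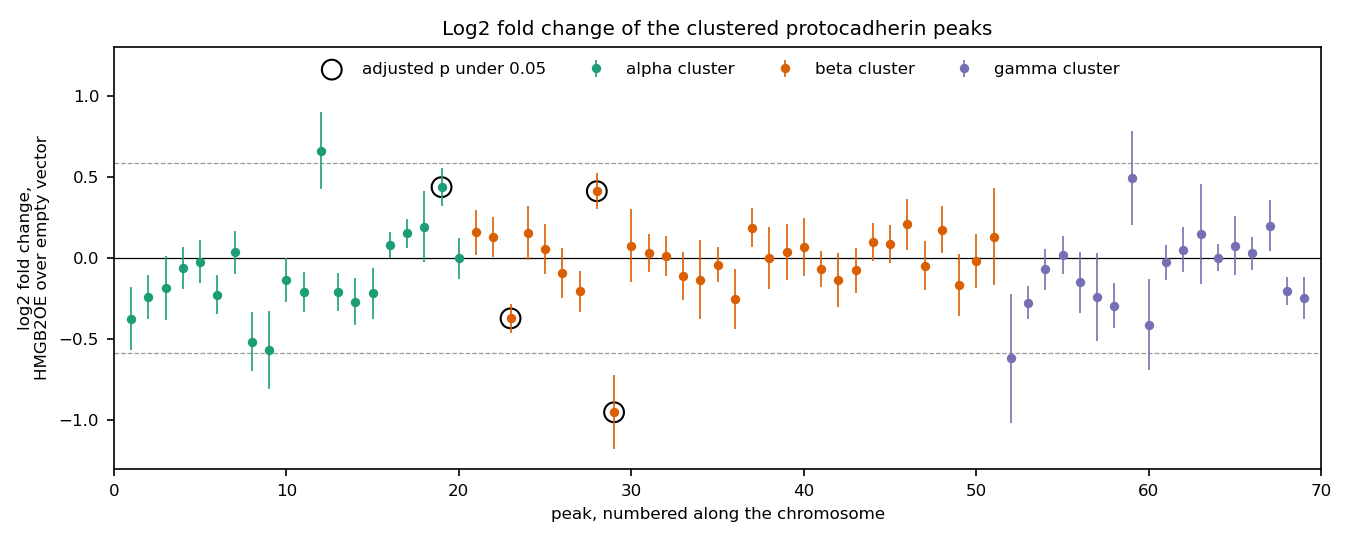
Log2 fold change of HMGB2OE over empty vector (vertical axis, point) with its standard error (bar) for the 69 peaks, numbered along the chromosome and coloured by cluster, with dashed lines at 1.5-fold. Circles mark the 4 peaks with an adjusted p below 0.05, of which only PCDHB3, at −0.95, lies beyond a dashed line.

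The next peaks, in order of p, were 2 alpha starts, which did not pass the threshold. The PCDHA7 start-site peak (chr5:140834021-140834522) had 154, 93.8 and 128 normalized counts in empty vector and 94.4, 87.6 and 75.4 in HMGB2OE. The groups overlapped by a single pair of libraries. Its log2 fold change was −0.52 with a standard error of 0.18 (edgeR quasi-likelihood, adjusted p = 0.0861), and without empty vector replicate 2 the adjusted p was 0.0303. The second PCDHA7 peak, which holds the CTCF word, had 69.5, 64.5 and 52.7 in empty vector and 37.4, 41.7 and 47.3 in HMGB2OE. Its groups did not overlap, with a log2 fold change of −0.57 and a standard error of 0.24 (adjusted p = 0.161). All of that peak's words (100%) occurred elsewhere in hg38. The PCDHA10 start-site peak (chr5:140855866-140856367) had 58.4, 37.9 and 36.3 in empty vector and 75.7, 65.9 and 64.2 in HMGB2OE. Its groups did not overlap, with the highest empty vector library close below the lowest HMGB2OE library. Its log2 fold change was 0.66 with a standard error of 0.24 (adjusted p = 0.0931), and without empty vector replicate 1 the adjusted p was 0.0387. More than 20% of its words occurred elsewhere in hg38 (27.5%).

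None of the alpha promoters passed the test. Of the 20 peaks nearest to an alpha gene, 14 had a log2 fold change below 0, with a median of −0.16. The 15 nearest to PCDHA1 through PCDHA13, a part not set in advance, held 13 of these and had a median of −0.21. Their summed normalized counts were 3260, 2838 and 2563 in empty vector and 2543, 2732 and 2391 in HMGB2OE. Empty vector replicate 1 was the highest of the 6, and the lowest empty vector sum lay below the highest HMGB2OE sum. For comparison, 70.1% of coding promoter peaks had a log2 fold change below 0, with a median of −0.07, and the median of all tested peaks was −0.005.

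The 3 C-type start-site peaks had log2 fold changes above 0, of which that of PCDHGC3 turned to −0.013 with GC-content offsets, and none passed the test. PCDHAC1 had a log2 fold change of 0.08 with a standard error of 0.08 (edgeR quasi-likelihood, adjusted p = 0.626) and groups that did not overlap. PCDHAC2 had 0.15 with a standard error of 0.09 (adjusted p = 0.343). PCDHGC3 had 0.003 with a standard error of 0.08 (adjusted p = 0.990), and a 95% interval from −0.16 to 0.16. This interval excludes changes of 1.5-fold at the most open start of the family.

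By cluster, the median log2 fold change was −0.16 over 20 alpha peaks, 0.01 over 31 beta peaks and −0.05 over 18 gamma peaks, and −0.03 over all 69. These medians moved with single libraries: the alpha median ranged from −0.23 without empty vector replicate 3 to −0.08 without empty vector replicate 1 or HMGB2OE replicate 1, and was −0.10 without empty vector replicate 2. The beta median was below 0 without empty vector replicate 2, empty vector replicate 3 or HMGB2OE replicate 2, and with GC-content offsets (−0.03). The direction was below 0 in 55.1% of the 69 peaks and in 50.8% of all tested peaks. Groups did not overlap at 6 peaks that were higher and 8 that were lower in HMGB2OE, against backgrounds of 12.6% and 12.5%. The summed normalized counts of the 69 peaks were 16070 ± 554 in empty vector and 15519 ± 522 in HMGB2OE (SD, n = 3 each), and the library sums overlapped. The counts called in the members are small, and they stood near or below the shares in the whole table.

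**Figure D5:**
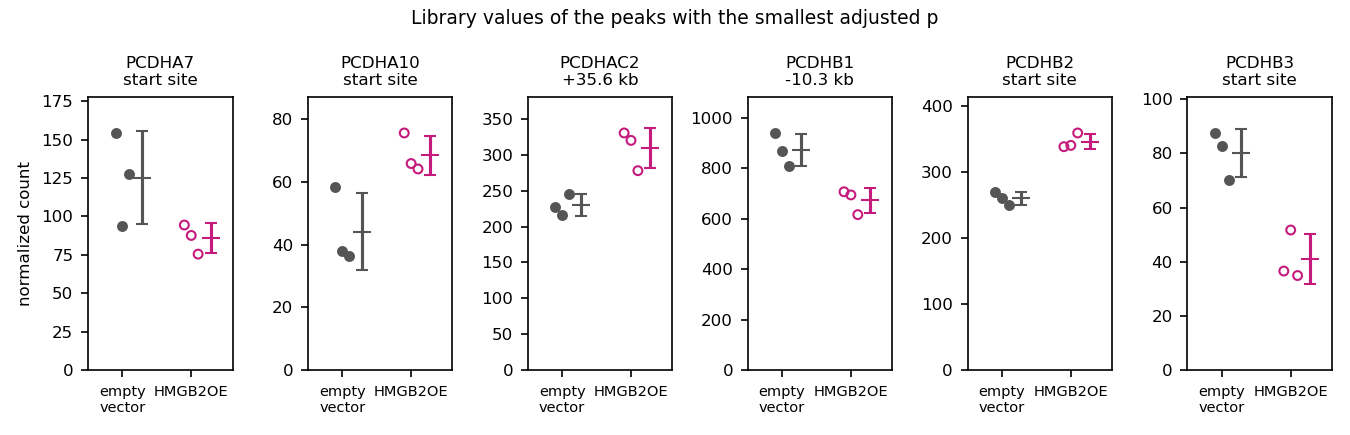
Normalized counts per library (points) with mean and SD (bars, n = 3) for the 4 peaks with an adjusted p below 0.05 and the next 2 by p, in chromosomal order, each on its own axis from 0. Empty vector is filled grey and HMGB2OE open magenta, and the groups are apart at all of them except PCDHA7.

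The gamma cluster held no peak that passed the test. Its most open peaks besides PCDHGC3 lay in introns after the start of PCDHGC5, the last gamma start, and so inside the span of every gamma gene. The peak from 141509036 to 141509537 had 962, 1174 and 1101 normalized counts in empty vector and 966, 953 and 897 in HMGB2OE. Its groups overlapped, and its log2 fold change was −0.20 with a standard error of 0.08 (edgeR quasi-likelihood, adjusted p = 0.160, or 0.0338 without empty vector replicate 1). The peak from 141493899 to 141494400 had 454, 561 and 531 in empty vector and 506, 492 and 590 in HMGB2OE, with a log2 fold change of 0.03. The lone peak with the CTCF word in this cluster (chr5:141512300-141512801) had a log2 fold change of −0.25 with a standard error of 0.13 (adjusted p = 0.280).

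Of the remaining peaks of highest level, 3 were far from any called change. The intronic peak of the alpha cluster from 141004117 to 141004618, the neighbour of the one that rose, had means of 294 ± 58.9 and 296 ± 16.9. The peak 9898 bp before PCDHB2 had 326 ± 46.6 and 283 ± 45.6, with a log2 fold change of −0.21 (edgeR quasi-likelihood, adjusted p = 0.367). The peak 5825 bp after the start of PCDHB6 had 338 ± 27.8 and 330 ± 17.8. PCDHB17P and ENSG00000290893, which are not among the members, start within 1 kb of that peak.

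The interval also holds the starts of 3 protein-coding genes that are not among the members. TAF7, a subunit of the general transcription factor TFIID, starts at the peak from 141320504 to 141321005, which was nearest to PCDHGA1 among the members. It had 524, 517 and 500 normalized counts in empty vector and 428, 460 and 383 in HMGB2OE. The groups did not overlap, with a log2 fold change of −0.27 and a standard error of 0.10 (edgeR quasi-likelihood, adjusted p = 0.0964, or 0.0478 with the replicate block and GC-content offsets together). The coding gene ENSG00000279983 starts at the PCDHB14 peak, which had a log2 fold change of 0.17 (adjusted p = 0.539). SLC25A2, a mitochondrial carrier, had no start-site peak.

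The genes that regulate these promoters were examined at their own promoters. Of 39 genes for CTCF, cohesin and its loaders, DNA methylation, SMCHD1, histone methylation and the cytoplasmic partners of the proteins, 37 had a promoter peak and CTCFL and UHRF1 had none. None was called in either direction by edgeR, and none had an adjusted p below 0.05. An unadjusted p below 0.05 was found at 6, all lower in HMGB2OE, against 20.9% of all tested peaks in either direction. The 37 log2 fold changes ranged from −0.30 to 0.10, with a median of −0.13 against −0.07 over coding promoter peaks. Wherever the groups did not overlap, as at SMC1A, SMC3 and WAPL, the HMGB2OE libraries were the lower ones. This shift as a whole was not tested. CTCF had a log2 fold change of 0.01 with a standard error of 0.07. The smallest p-values belonged to NIPBL, which loads cohesin onto DNA, with a log2 fold change of −0.30 (adjusted p = 0.0855), and to ABI2, a subunit of the actin-regulating WAVE complex, with −0.28 (adjusted p = 0.119). Their promoter peaks had means of 732 and 443 normalized counts, against a median of 566 over coding promoter peaks and 176 over the protocadherin start-site peaks.

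Comparison with the surroundings placed the clusters beside other chromatin of the same chromosome and other genes of the superfamily. Within 1 Mb on either side of the interval, 277 peaks were tested, of which 3 were called higher and 1 was called lower, with a median log2 fold change of −0.03. Around the non-clustered protocadherins, which are single genes on several chromosomes, 2 of 127 tested peaks were called higher, both at PCDH7, and 5 lower, at PCDH15 and PCDH11X, with a median of 0.04. Over all tested peaks 1.87% were higher and 1.44% lower. The 2 comparison sets were chosen separately, so a peak can stand in both. The difference between the clustered and the non-clustered genes was not tested.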

How the data were processed

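ATAC-seq libraries of A375 cells were analysed as 3 empty vector and 3 HMGB2OE libraries, grouped by their labels. Per the study's methods, reads were trimmed by the authors (Trim Galore 0.6.7, quality 15) and placed on hg38 by Bowtie 2. Duplicates were marked by Picard. Peaks came from MACS2 at p 0.001, for which public melanocyte data served as control. Peaks in blacklisted regions were dropped, those falling in a 500 bp region were merged, and featureCounts counted the reads of each library. Some peaks that nearly touch stayed separate, such as those at PCDHB6 from 141149980 to 141150481 and from 141150484 to 141150985. The deposited values are raw counts per peak. Whether reads were shifted for the Tn5 offset is not given in the sources used here. Coordinates are printed as the table gives them. Intervals cover counting and library error only.

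Counts were fitted with edgeR 4.0.16 (R 4.3.3): TMM scaling, filterByExpr (150117 of 152800 peaks kept, including all 69 members), quasi-likelihood test, Benjamini–Hochberg adjustment over all tested peaks, called below 0.05 with at least a 1.5-fold change. Normalized counts are counts per mean TMM-scaled library. The script was tested on simulated data. The members, lists and tests were chosen with earlier results of these data known. Named were the called peaks, the next 5 by p, the 3 most open peaks per cluster, C-type promoters, start-site peaks of other genes in the interval and, of regulators and partners, those called and the 2 smallest p. Further peaks (PCDHGA7, the peaks with a CTCF word, PCDHA9, PCDHB4 and the ranked start sites) and CTCF were named after their values were seen. Alternatives were other scalings, DESeq2 1.42.0, count filters, a replicate block, GC-content offsets, centring on 10 Mb windows, fold limits, start-site peaks only and each library left out. The intervals are 1.96 standard errors on each side.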

Additional observations from a re-analysis of the deposited data

How the results depend on the processing

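The counts of called clustered protocadherin peaks, 0 higher and 1 lower, were the same under every scaling, filter, GC and window alternative and with DESeq2. The smaller fold limit and no fold limit each gave 2 higher and 2 lower. Leaving out single libraries gave 0 to 1 higher and 0 to 2 lower. PCDHA10 was called higher without empty vector replicate 1, PCDHA7 was called lower without empty vector replicate 2, and PCDHB3 was lost without HMGB2OE replicate 1. The median of all 69 peaks (−0.027) was −0.077 with GC-content offsets and ranged from −0.072 to −0.002 over left-out libraries, the alpha median (−0.16) ranged from −0.23 to −0.077 and the beta median (0.012) from −0.021 to 0.067. The beta median also fell below 0 with GC-content offsets (−0.029) and with these and the replicate block (−0.033). The gamma median of −0.05 moved to −0.099 with GC-content offsets and −0.104 with these and the replicate block, and ranged from −0.097 to −0.027 over the left-out libraries, while the cause was not tested. Deviations of same-numbered libraries had correlations of −0.088, 0.191 and 0.128, and those of other pairs ranged from −0.270 to 0.158. With 3 libraries per group, these values cannot decide whether the replicate numbers pair the libraries. The replicate block left 0 higher and 1 lower among the members, with 3192 higher and 2383 lower in the whole table against 2800 and 2166.

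Values near 0 changed sign. The PCDHAC2 peak from 141004117 (−0.002) became 0.021 with library sizes only, 0.0022 with DESeq2 size factors, 0.00058 with the loess trend removed, 0.0049 in DESeq2, 0.012 with the replicate block and 0.0065 with window centring, and ranged from −0.14 to 0.091 over left-out libraries. PCDHGC3 (0.003) became −0.013 with GC-content offsets and −0.012 with these and the block, and ranged from −0.034 to 0.048. The PCDHGC5 peak from 141493899 (0.03) became −0.028 and −0.023 in the same 2 fits, and ranged from −0.052 to 0.096. Of the called peaks in the whole table, 56.4% were higher, against 62.6% with library sizes only and 50.4% with the loess trend removed. At the level of PCDHB3, with 31 to 96 reads per library, the standard error of 0.23 limits what can be detected, and the median standard error of the members was 0.14.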
